A study of Homo sapiens with 36 samples.

Results

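The enzymes of glycolysis, the pentose phosphate pathway and glycogen metabolism were followed in LNCaP cells, an androgen-sensitive line derived from a human prostate cancer metastasis. The set was a list of 33 genes, and each was read from its brightest probe, the probe annotated to the symbol with the highest mean scanner intensity over all 36 arrays. A probe was named for 31 of the 33 genes, out of 20045 named genes tested on the array. The lactate transporters SLC16A1 and SLC16A3 had no named probe, so their expression was not analysed here.

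Glycolysis splits glucose into pyruvate. Hexokinases trap the sugar in the cell, phosphofructokinase commits it to the pathway, and the lower enzymes return ATP and NADH. Lactate dehydrogenase then exchanges pyruvate and lactate, or the pyruvate dehydrogenase complex passes the carbon to the mitochondrion. The pentose phosphate branch makes NADPH and ribose, glycogen enzymes store and release glucose, and PCK2 is the mitochondrial enzyme that turns oxaloacetate into phosphoenolpyruvate. HIF1a, the oxygen-regulated subunit of the hypoxia-inducible factor, is known as an activator of many glycolytic genes, and the androgen receptor is the main hormone-regulated transcription factor of prostate cells.

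All cells were LNCaP transductants. LNCaP/Empty carried the empty retroviral vector, and HIF12 and HIF49 were stable clones carrying HIF1a with amino acid substitutions that stop its degradation in oxygen. Each HIF1a line is a single clone, so the transgene and the clone cannot be told apart. LNCaP/Empty and HIF12 were each measured with 0.01% ethanol vehicle (5 arrays each) and with 1 nM of the synthetic androgen R1881 (5 arrays each) for 4 h, after 96 h in charcoal stripped serum. A further set was labelled Normal, with 6 arrays of LNCaP/Empty, 5 of HIF12 and 5 of HIF49. The labels do not define Normal, and the growth note attached to every array mentions stripped serum, so a difference between vehicle and Normal cannot be tied to serum, time or ethanol. HIF49 was measured in Normal only.

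On its brightest probe HIF1A read 7.93 to 8.93 (log2 level, background-corrected and quantile-normalized) on the 16 LNCaP/Empty arrays, 9.45 to 10.31 on the 15 HIF12 arrays and 10.00 to 10.35 on 4 of the 5 HIF49 arrays. The library labelled HIF49 Normal replicate 1 read 7.45, below every other array, and so went against its label. A second HIF1A probe read 7.09 on it, 8.78 to 9.08 on the other 4 HIF49 arrays, 8.70 to 9.31 in HIF12 and 7.05 to 8.12 in LNCaP/Empty. The third probe read 8.76 on it and did not separate the lines, at 8.11 to 9.08 in HIF12 and 7.69 to 9.03 in LNCaP/Empty. Its median correlation with its own group was 0.9751, against 0.987 or more for the other 35 arrays. The HIF49 differences of set members that passed an adjusted p of 0.05 on their brightest probe are therefore given with and without it, and most other HIF49 values with it. Each gene was fitted with a single variance over all 36 arrays. This array therefore also enters the SE of comparisons that do not involve HIF49. Probes detected (detection p under 0.01) numbered 15374 to 17839 per array. TMPRSS2, HOXB13, FOLH1, KRT8 and KRT18, markers of LNCaP and luminal prostate cells, were detected on all 36 arrays, with 23 of 26 marker genes named by a probe, and the basal markers KRT5 and KRT14 and the leukocyte markers PTPRC, CD3E and LYZ on none. Of the liver markers, ALB was detected on all 36 arrays, TTR on 35 and APOA1 on 25. The androgen-induced chaperone gene FKBP5 rose with R1881 from a mean of 9.90 to 12.27 in LNCaP/Empty and from 9.72 to 11.44 in HIF12.

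The genes of the set were looked up among RefSeq promoters (GRCh38.p14), because HIF1a and the androgen receptor act through known short DNA elements. The 250 bases before the annotated start are printed 5′ to 3′ for 6 genes, chosen after their values were seen as examples of the androgen result and of the shifts between vehicle and Normal: HK2 and LDHA with both of their starts, and LDHB, PCK2, ENO2 and PGM2 with their single start. Capitals mark matches, on either strand, to the HIF core (ACGTG or GCGTG), the E-box CACGTG, which contains the first of these, the androgen receptor half-site AGAACA, or the ATF4 element TGATGNAA.
HK2, chr2:74833877-74834126, plus strand: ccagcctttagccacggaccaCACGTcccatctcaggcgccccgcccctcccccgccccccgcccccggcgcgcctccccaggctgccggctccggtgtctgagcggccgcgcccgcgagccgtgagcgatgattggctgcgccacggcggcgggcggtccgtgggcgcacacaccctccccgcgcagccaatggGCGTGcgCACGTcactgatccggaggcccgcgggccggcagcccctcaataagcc
HK2, chr2:74834920-74835169, plus strand: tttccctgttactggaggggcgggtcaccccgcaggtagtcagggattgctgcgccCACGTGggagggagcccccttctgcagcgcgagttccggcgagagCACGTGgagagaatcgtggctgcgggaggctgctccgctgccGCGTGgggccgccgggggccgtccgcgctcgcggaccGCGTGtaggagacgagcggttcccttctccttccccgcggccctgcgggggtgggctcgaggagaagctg
LDHA, chr11:18394313-18394562, plus strand: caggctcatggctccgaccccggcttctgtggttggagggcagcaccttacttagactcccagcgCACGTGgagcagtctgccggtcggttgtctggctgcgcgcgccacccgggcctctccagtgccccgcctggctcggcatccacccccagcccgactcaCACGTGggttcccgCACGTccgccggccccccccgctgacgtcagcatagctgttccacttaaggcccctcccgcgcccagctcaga
LDHA, chr11:18396101-18396350, plus strand: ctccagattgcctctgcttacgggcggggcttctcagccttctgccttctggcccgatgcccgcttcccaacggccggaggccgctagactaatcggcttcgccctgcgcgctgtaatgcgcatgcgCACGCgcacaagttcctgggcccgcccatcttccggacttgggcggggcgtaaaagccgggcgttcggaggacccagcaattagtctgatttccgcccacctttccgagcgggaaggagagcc
LDHB, chr12:21657843-21658092, minus strand: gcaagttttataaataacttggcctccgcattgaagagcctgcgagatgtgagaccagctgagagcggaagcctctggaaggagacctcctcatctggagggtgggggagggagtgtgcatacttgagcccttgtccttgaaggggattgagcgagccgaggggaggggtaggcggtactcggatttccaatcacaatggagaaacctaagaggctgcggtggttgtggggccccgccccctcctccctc
PCK2, chr14:24094061-24094310, plus strand: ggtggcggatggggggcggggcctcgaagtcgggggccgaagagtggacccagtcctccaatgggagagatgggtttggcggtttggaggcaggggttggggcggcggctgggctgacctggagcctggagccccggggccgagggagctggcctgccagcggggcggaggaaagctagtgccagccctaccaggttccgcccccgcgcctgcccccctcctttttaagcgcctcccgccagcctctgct
ENO2, chr12:6914330-6914579, plus strand: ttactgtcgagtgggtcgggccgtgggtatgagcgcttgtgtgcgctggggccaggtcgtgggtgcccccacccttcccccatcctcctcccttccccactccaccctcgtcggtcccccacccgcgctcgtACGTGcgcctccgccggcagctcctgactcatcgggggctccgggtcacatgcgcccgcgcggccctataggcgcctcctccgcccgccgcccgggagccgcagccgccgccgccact
PGM2, chr4:37826436-37826685, plus strand: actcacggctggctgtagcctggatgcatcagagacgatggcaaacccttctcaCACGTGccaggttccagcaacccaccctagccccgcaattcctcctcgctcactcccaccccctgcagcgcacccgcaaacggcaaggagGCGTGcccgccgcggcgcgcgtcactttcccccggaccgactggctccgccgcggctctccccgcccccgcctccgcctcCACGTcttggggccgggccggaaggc

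Of the 33 genes 32 had a promoter, with 60 starts between them, including starts of SLC16A3, which had no named probe. The HIF core was found in 33 of the 60 member starts (55%) and in 43.2% of all 35114 starts. The E-box was found in 7 of 60 (11.7%, against 6.35% of all starts), the androgen half-site in 4 (6.67%, against 12.4%) and the ATF4 element in 2 (3.33%, against 3.14%). An E-box reads the same on both strands and so counts as 2 HIF core matches. The downstream window of HK2 held 6 HIF core matches and the upstream LDHA start held 5, each including a pair of E-boxes, whereas the windows of LDHB and PCK2 held no match to any of the 4 motifs. PGM2 held 4 HIF core matches, of which 1 E-box gave 2, and no androgen half-site, and ENO2 held 1 HIF core match. These are letter matches in a short window and say nothing of binding.

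Nearly all of the enzymes were readily measured. Of the 31 genes, 30 were detected on all 36 arrays, and glycogen synthase GYS1 was detected on 34. By mean level, 24 of the 31 lay above percentile 90 of all probes, and the lowest lay at percentile 70.7. Some members hardly moved anywhere. The group means of PDHB, the beta subunit of the pyruvate dehydrogenase component E1, spanned 12.58 to 12.70 over the 7 groups, and those of TALDO1, the transaldolase of the pentose phosphate pathway, spanned 13.29 to 13.44. The widest span was that of HK2, from 7.35 to 9.04, followed by LDHB, from 12.17 to 13.33, and ENO2, from 7.41 to 8.52. GAPDH, often used as a reference gene, spanned 14.06 to 14.44.

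**Figure D1:**
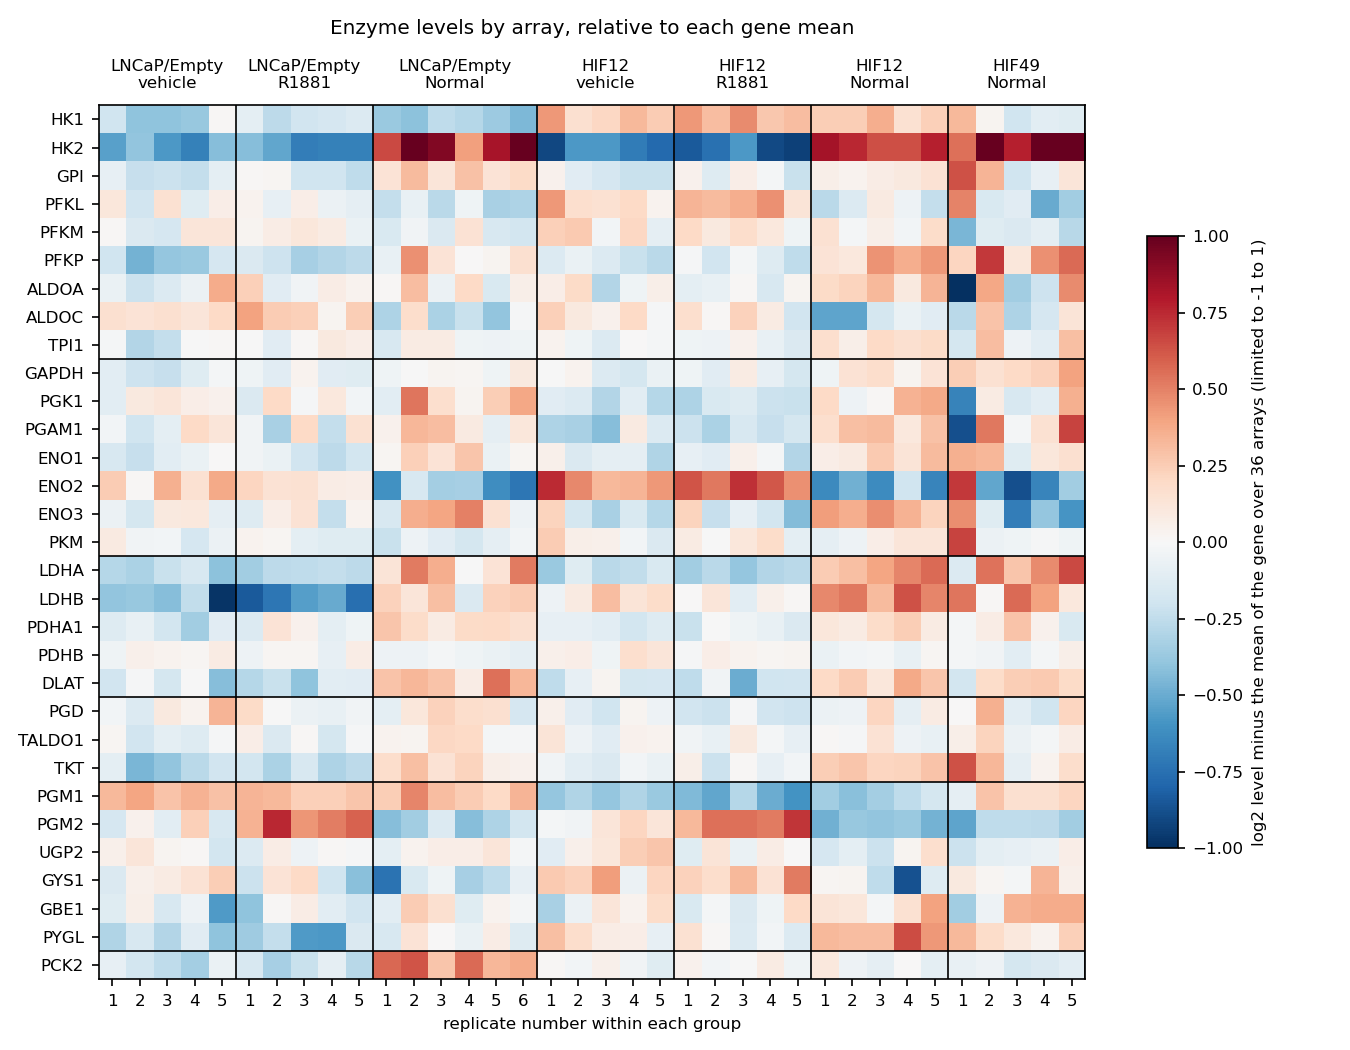
Log2 level of each of 31 enzymes on each of 36 arrays, minus the mean of that gene over all arrays (colour, limited to −1 to 1), with genes in rows ordered by role and arrays in columns by group and replicate. HK2 is high in all Normal arrays and low in all vehicle and R1881 arrays, PCK2 is high in LNCaP/Empty Normal, PGM1 is low in HIF12, and HIF49 Normal replicate 1 departs from its group at several genes.

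The first question was whether 4 h of R1881 changed these enzymes. No member passed an adjusted p of 0.05 with a change of at least 1.5-fold (the thresholds of the study, called "past the threshold" from here on), in either line. Over all 20045 genes, 1.23% rose and 0.459% fell past the threshold in LNCaP/Empty, and 1.01% rose and 0.22% fell in HIF12. Among the 10951 genes detected on at least 5 arrays, a closer background since all 31 members were, 2.2% and 0.785% rose and fell in LNCaP/Empty and 1.82% and 0.384% in HIF12. An unadjusted p under 0.05 was found for 2 members in LNCaP/Empty and 1 in HIF12. The share of all genes at that rule was not computed, so such counts, here and below, are not read as differences. The 95% interval of the R1881 effect, unadjusted for the number of genes, lay within a 1.5-fold change in both directions for 30 of the 31 members in each line. The androgen effect on HK2 was −0.07 (95% interval −0.30 to 0.15) in LNCaP/Empty and −0.09 (−0.32 to 0.13) in HIF12, and that on LDHA was 0.01 (−0.21 to 0.22) and −0.08 (−0.30 to 0.13).

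The exception was PGM2, a phosphopentomutase that links ribose 1-phosphate to the pentose phosphates. PGM2 read 9.89, 10.10, 9.96, 10.30 and 9.90 on the LNCaP/Empty vehicle arrays and 10.41, 10.82, 10.50, 10.57 and 10.65 with R1881, so the groups did not overlap. It rose by 0.56 on the log2 scale (SE 0.085, 1.47-fold, adjusted p = 3.2e-05). In HIF12 it read 10.04, 10.03, 10.18, 10.28 and 10.19 with vehicle and 10.39, 10.61, 10.61, 10.58 and 10.78 with R1881, again without overlap, a rise of 0.45 (SE 0.085, 1.37-fold, adjusted p = 0.0014). At an adjusted p under 0.05 and any size, 1.98% of all genes rose and 0.983% fell in LNCaP/Empty, and 1.56% rose and 0.514% fell in HIF12. Of the detected genes 3.47% rose and 1.73% fell in LNCaP/Empty, and 2.78% and 0.886% in HIF12. Against this background 1 of 31 members (3.23%) rose in each line and 0 fell. Without LNCaP/Empty R1881 replicate 1 or without LNCaP/Empty vehicle replicate 4 the LNCaP/Empty rise was 0.605 or 0.627 and past the threshold. The R1881 effect on PGM2 differed between the lines by −0.11 (95% interval −0.36 to 0.14, adjusted p = 1.0). No member passed the test of a different R1881 effect in the lines, for which 2 of 20045 genes (0.00998%) passed, while 0 members had an unadjusted p under 0.05.

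**Figure D2:**
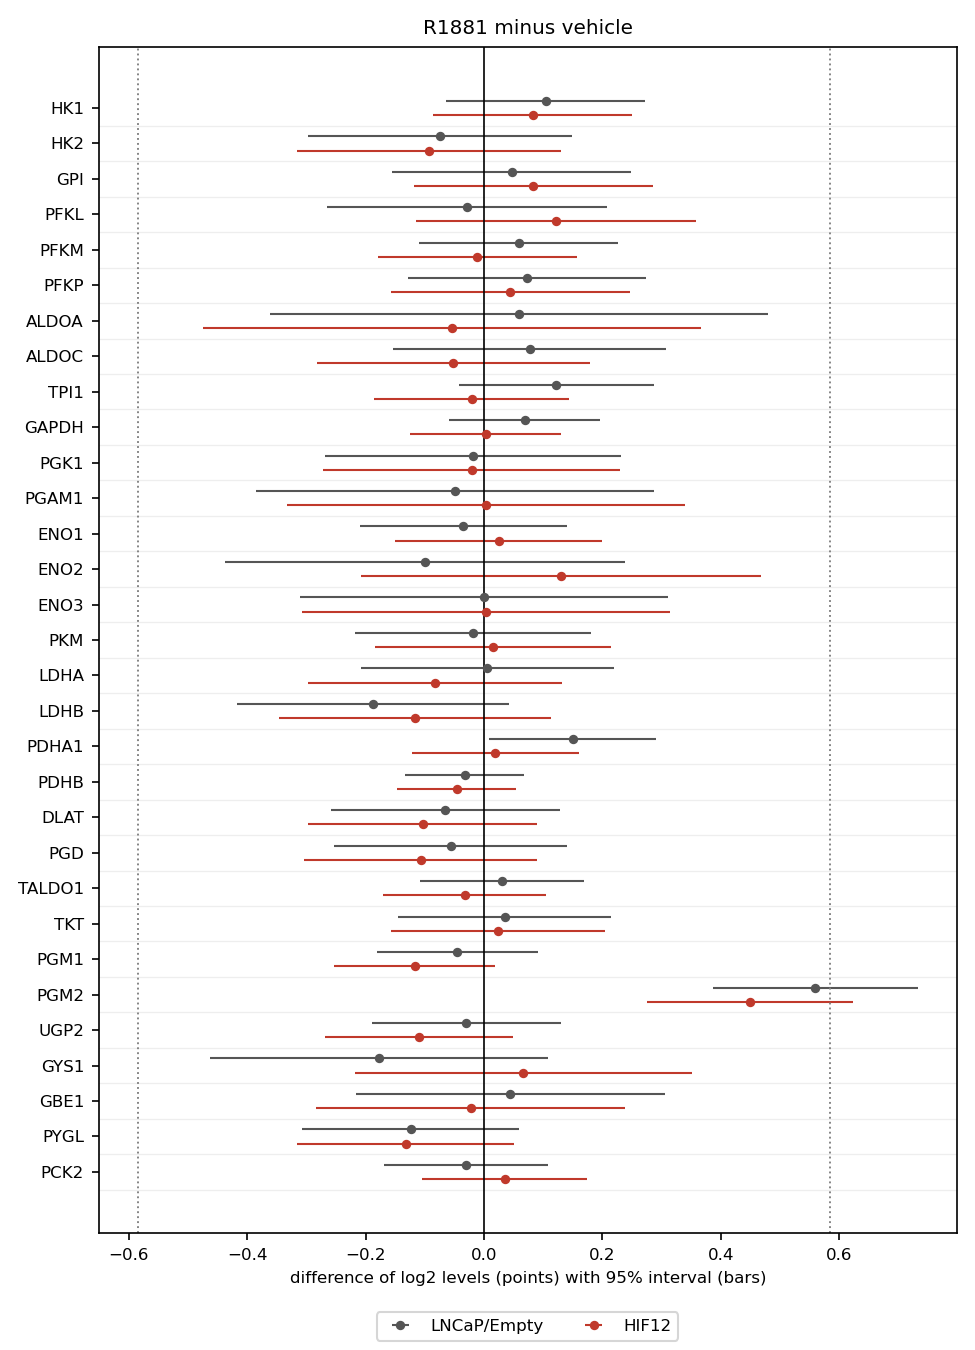
Difference of log2 levels between R1881 and vehicle for each of 31 enzymes (points, with 95% intervals as bars) in LNCaP/Empty (grey) and HIF12 (red), with a 1.5-fold change drawn as dotted lines. PGM2 is the member whose interval reaches past the 1.5-fold line, at 0.56 and 0.45, and the other intervals stay inside.

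Among the other genes of these pathways, a list of 87 of which 75 had a named probe, 0 passed the threshold in LNCaP/Empty, with 7 at an unadjusted p under 0.05 (share of all genes not computed), and 1 passed in HIF12. The latter was HKDC1, a hexokinase domain protein, which rose from 5.54 to 6.20 (0.66, SE 0.163, adjusted p = 0.028) and was detected on 1 of 5 vehicle arrays and 5 of 5 R1881 arrays. Over all genes 1.23% rose and 0.459% fell past the threshold in LNCaP/Empty, and 1.01% rose and 0.22% fell in HIF12.

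The second question was what differed between the HIF1a clones and the empty vector line. In the HIF12 clone LDHB, the heart-type lactate dehydrogenase subunit, was higher after vehicle or R1881, and HK1, the widely expressed hexokinase, was higher in every condition. PGM1, which interconverts glucose 1-phosphate and glucose 6-phosphate at the entry to glycogen, was lower in every condition. LDHA, HK2, PGK1, ALDOA, ALDOC and ENO2 did not pass an adjusted p of 0.05 against LNCaP/Empty in either clone. With R1881, however, ENO2 was higher in HIF12 by 0.46, with means of 8.06 and 8.52 and no overlap of the arrays. The interval of this difference reached past a 1.5-fold change, as did that of ALDOA in HIF49. A difference of that size was therefore not excluded for either. ENO2 means in LNCaP/Empty and HIF12 were 8.16 and 8.39 in vehicle, with overlapping arrays, and 7.47 and 7.41 in Normal. Markers also differed between the lines, and their part in these results was not tested. In Normal the liver marker TTR was higher in HIF12 by 0.95 (adjusted p = 4.9e-06) and in HIF49 by 0.68 (adjusted p = 0.0011), and it was higher in HIF12 vehicle by 0.52 (adjusted p = 0.028) and with R1881 by 0.58 (adjusted p = 0.009). Of the androgen-regulated kallikreins, KLK3 was lower in HIF12, at −1.12 in vehicle, −1.33 with R1881 and −0.95 in Normal, and KLK2 was higher in HIF12 Normal by 1.43 (adjusted p = 8.3e-06). KLK2 means were also higher in HIF12 in vehicle (5.82 and 6.73 in LNCaP/Empty and HIF12, with overlapping arrays) and with R1881 (8.32 and 8.80).

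PGM1 was lower in HIF12 in every condition. It read 10.75, 10.81, 10.71, 10.77 and 10.72 in LNCaP/Empty vehicle and 10.04, 10.12, 10.03, 10.12 and 10.05 in HIF12 vehicle. With R1881 the values were 10.76, 10.75, 10.66, 10.66 and 10.70 against 9.98, 9.90, 10.14, 9.93 and 9.83, and in Normal they were 10.67, 10.91, 10.73, 10.67, 10.62 and 10.76 against 10.07, 10.00, 10.08, 10.17 and 10.25. The lines did not overlap in any of the 3 conditions. PGM1 was lower, at −0.68 in vehicle (SE 0.067, 1.60-fold, adjusted p = 7.7e-09), −0.75 with R1881 (SE 0.067, 1.68-fold, adjusted p = 8.4e-10) and −0.61 in Normal (SE 0.064, 1.53-fold, adjusted p = 2e-08). In Normal the fold lay near the threshold, and it was under 1.5-fold without LNCaP/Empty Normal replicate 2 (−0.577) and without background correction (−0.574).

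After vehicle or R1881, HIF12 held more LDHB than LNCaP/Empty. It read 12.45, 12.46, 12.42, 12.60 and 11.87 in LNCaP/Empty vehicle and 12.80, 12.94, 13.15, 12.97 and 13.03 in HIF12 vehicle. With R1881 it read 12.01, 12.12, 12.30, 12.34 and 12.09 against 12.85, 12.97, 12.74, 12.90 and 12.86. No LNCaP/Empty array reached a HIF12 array in either condition, and replicate 5 of LNCaP/Empty vehicle lay below the rest of its group. The difference was 0.62 in vehicle (SE 0.113, adjusted p = 0.00065) and 0.69 with R1881 (SE 0.113, 1.61-fold, adjusted p = 0.00012). Without LNCaP/Empty vehicle replicate 5 the vehicle difference was 0.495, and without HIF12 vehicle replicate 3 it was 0.575, both under 1.5-fold. It was also under 1.5-fold with the running number of the titles as a block of 6 (0.533) or 12 arrays (0.569). In Normal, LDHB means of 13.01 and 13.33, from arrays that did not overlap, differed by 0.32 (95% interval 0.10 to 0.54, adjusted p = 0.13). The HIF12 difference in vehicle was not shown to be larger than that in Normal (difference 0.30, 95% interval −0.02 to 0.61, adjusted p = 0.85).

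HK1 was higher in HIF12 throughout. It read 11.61, 11.57, 11.72, 11.69, 11.61 and 11.53 in LNCaP/Empty Normal and 12.22, 12.22, 12.34, 12.13 and 12.22 in HIF12 Normal, a rise of 0.60 (SE 0.079, 1.52-fold, adjusted p = 2e-06). In vehicle it read 11.78, 11.58, 11.57, 11.60 and 11.99 against 12.41, 12.14, 12.18, 12.30 and 12.23, and with R1881 11.88, 11.72, 11.79, 11.81 and 11.85 against 12.41, 12.29, 12.45, 12.25 and 12.28. The lines were apart in each condition. The differences in vehicle (0.55, SE 0.083, adjusted p = 3.6e-05) and with R1881 (0.53, SE 0.083, adjusted p = 6e-05) passed the adjusted p but fell short of 1.5-fold. In Normal the call rested on a fold near the threshold, since without HIF12 Normal replicate 3 the difference was 0.575. The other 3 probes of HK1 were dim, with mean levels of 6.3, 4.6 and 4.6, and did not pass in any comparison.

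PYGL, the liver-type glycogen phosphorylase that releases glucose 1-phosphate, was higher in HIF12 at sizes under 1.5-fold, by 0.36 in vehicle (adjusted p = 0.018), 0.35 with R1881 (adjusted p = 0.017) and 0.43 in Normal (adjusted p = 0.0015). Its means were 8.17 and 8.53, 8.05 and 8.40, and 8.40 and 8.83 in LNCaP/Empty and HIF12, without overlap of the arrays in any of the 3 conditions.

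Counted over the 31 members, 1 was higher and 1 lower in HIF12 past the threshold in each condition. Over all genes 0.878% were higher and 0.798% lower in vehicle, 1.4% and 0.933% with R1881, and 0.953% and 0.888% in Normal. With R1881 the split of calls over all genes, 281 higher of 468, became 466 higher of 597 when arrays were scaled by their medians, and in vehicle 176 of 336 became 205 of 328. At an adjusted p under 0.05 and any size, 3 members were higher and 1 lower in vehicle, against 2.27% and 2.23% of all genes, and 3 and 1 with R1881, against 3.53% and 2.74%. In Normal, 2 were higher and 2 lower, against 2.17% and 2.66%. Among the detected genes, 4.03%, 6.16% and 3.77% were higher and 3.87%, 4.73% and 4.68% lower in vehicle, with R1881 and in Normal. The median difference over the members was 0.08 in vehicle, 0.03 with R1881 and 0.07 in Normal, beside medians of 0.01, 0.01 and 0.00 over all genes. Each of these comparisons shares its arrays with other comparisons given here, the vehicle arrays with both the R1881 and the Normal comparisons. Of the 75 other pathway genes, 2, 1 and 0 passed the threshold in vehicle, with R1881 and in Normal, the last with 13 at an unadjusted p under 0.05 (share of all genes not computed). SLC16A7, a monocarboxylate transporter, was lower, at −0.68 in vehicle (adjusted p = 0.011) and at −0.67 with R1881 (adjusted p = 0.01), but was detected on 2 and 0 of the 5 HIF12 arrays. PHKG1, a catalytic subunit of phosphorylase kinase, was higher by 0.65 in vehicle and was detected on 1 of 10 arrays, so its values lie at background.

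The HIF49 clone, measured in Normal only, shared with HIF12 the PCK2 difference seen in Normal but not the size of that in PGM1. No member passed the threshold against LNCaP/Empty, where 0.758% of all genes were higher and 0.733% lower. At an unadjusted p under 0.05, a looser rule than that of these shares, there were 10 members. The share of all genes at that rule was not computed. At any size, 2 were higher (2.53% of all genes) and 1 was lower (1.98%), where 4.42% and 3.48% of the detected genes were. PCK2 read 12.66, 12.72, 12.37, 12.65, 12.42 and 12.46 in LNCaP/Empty Normal, 12.19, 12.04, 12.00, 12.09 and 11.99 in HIF12 Normal and 12.01, 12.04, 11.91, 11.95 and 11.98 in HIF49 Normal. Every array of both clones lay below every LNCaP/Empty array. PCK2 was lower, at −0.57 in HIF49 (SE 0.065, 1.48-fold, adjusted p = 1.6e-07) and at −0.48 in HIF12 (SE 0.065, 1.40-fold, adjusted p = 3.7e-06), against the same LNCaP/Empty arrays. The second probe of PCK2 (mean level 9.2) gave −0.62 in HIF49 (adjusted p = 2.7e-05) and −0.51 in HIF12 (adjusted p = 0.00046). The third (mean level 7.8) gave −0.33 (adjusted p = 0.072) and −0.38 (adjusted p = 0.023). Outside Normal the HIF12 difference on the brightest PCK2 probe had the opposite sign, at 0.16 in vehicle and 0.23 with R1881. Neither passed an adjusted p of 0.05, and the R1881 arrays of the lines did not overlap.

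HK1 was higher in HIF49 by 0.34 (SE 0.079, adjusted p = 0.0085) and GAPDH, the glyceraldehyde 3-phosphate dehydrogenase, by 0.24 (SE 0.060, adjusted p = 0.02). HK1 read 12.30 on HIF49 replicate 1 and 12.01, 11.78, 11.88 and 11.86 on the others. Without replicate 1 the differences were 0.26 for HK1 (adjusted p = 0.048), 0.24 for GAPDH (adjusted p = 0.032) and −0.58 for PCK2 (adjusted p = 5.5e-07). Without it 1 member was past the threshold, the muscle-type enolase ENO3, at −0.65 (adjusted p = 0.0015) against −0.47 (adjusted p = 0.085) with it.

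Between the clones, ENO3 was lower in HIF49 than in HIF12, at −0.63 (SE 0.153, 1.54-fold, adjusted p = 0.0082). It read 9.09, 9.03, 9.13, 9.02 and 8.89 in HIF12 Normal and 9.13, 8.55, 7.98, 8.28 and 8.08 in HIF49 Normal, so replicate 1 of HIF49 lay with HIF12 and the other 4 arrays lay below. LNCaP/Empty Normal read 8.51, 9.04, 9.07, 9.17, 8.82 and 8.62. In HIF12 it read 8.89, 8.49, 8.35, 8.52 and 8.38 in vehicle and 8.90, 8.44, 8.59, 8.49 and 8.23 with R1881. In LNCaP/Empty it read 8.61, 8.50, 8.77, 8.78 and 8.58 in vehicle and 8.54, 8.74, 8.81, 8.44 and 8.70 with R1881, overlapping HIF12. Without replicate 1 the difference was −0.81 (adjusted p = 7.1e-05), while without replicate 3 it was −0.521 and under 1.5-fold, as it also was without replicate 5. With only the compared arrays fitted ENO3 did not pass (−0.628, adjusted p = 0.15). A second ENO3 probe, detected on 29 arrays, differed by −0.50 (adjusted p = 0.31). PGM1 was higher in HIF49 (10.33, 10.71, 10.58, 10.58 and 10.64) than in HIF12 by 0.46 (SE 0.067, adjusted p = 1.1e-05), without overlap, and by 0.51 without replicate 1 (adjusted p = 6.7e-07). HK1 differed between the clones by −0.26 (adjusted p = 0.064), and without replicate 1 it was lower in HIF49, at −0.35 (adjusted p = 0.003). PFKM, the muscle-type phosphofructokinase, was lower, at −0.29 (adjusted p = 0.033), and without replicate 1 it was at −0.23 (adjusted p = 0.13). Past the threshold were 0 members higher and 1 lower, against 1.66% and 1.15% of all genes, and at any size 1 higher and 2 lower, against 4.38% and 3.16% of all genes and 7.62% and 5.52% of the detected genes. Of the other pathway genes MPC2, a subunit of the mitochondrial pyruvate carrier, was higher in HIF49 by 0.60 (13.12 to 13.72, adjusted p = 4.9e-08).

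HIF49 replicate 1 stood apart from its group in several enzymes. The array was the highest or lowest of the 5 arrays for 21 of 31 members, a count that on the other 35 arrays ranged from 6 to 21. Its median distance from the mean of its group-mates was 0.29, against 0.03 to 0.20 on the others. ALDOA, the main aldolase, read 11.09 on it and 12.36 to 13.18 on the other 4 arrays. PKM, pyruvate kinase, read 11.92 against 11.19 to 11.23, ENO2 8.64 against 7.05 to 7.58, and LDHA 13.86 against 14.28 to 14.66. PGAM1 read 11.07 against 11.93 to 12.63.

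**Figure D3:**
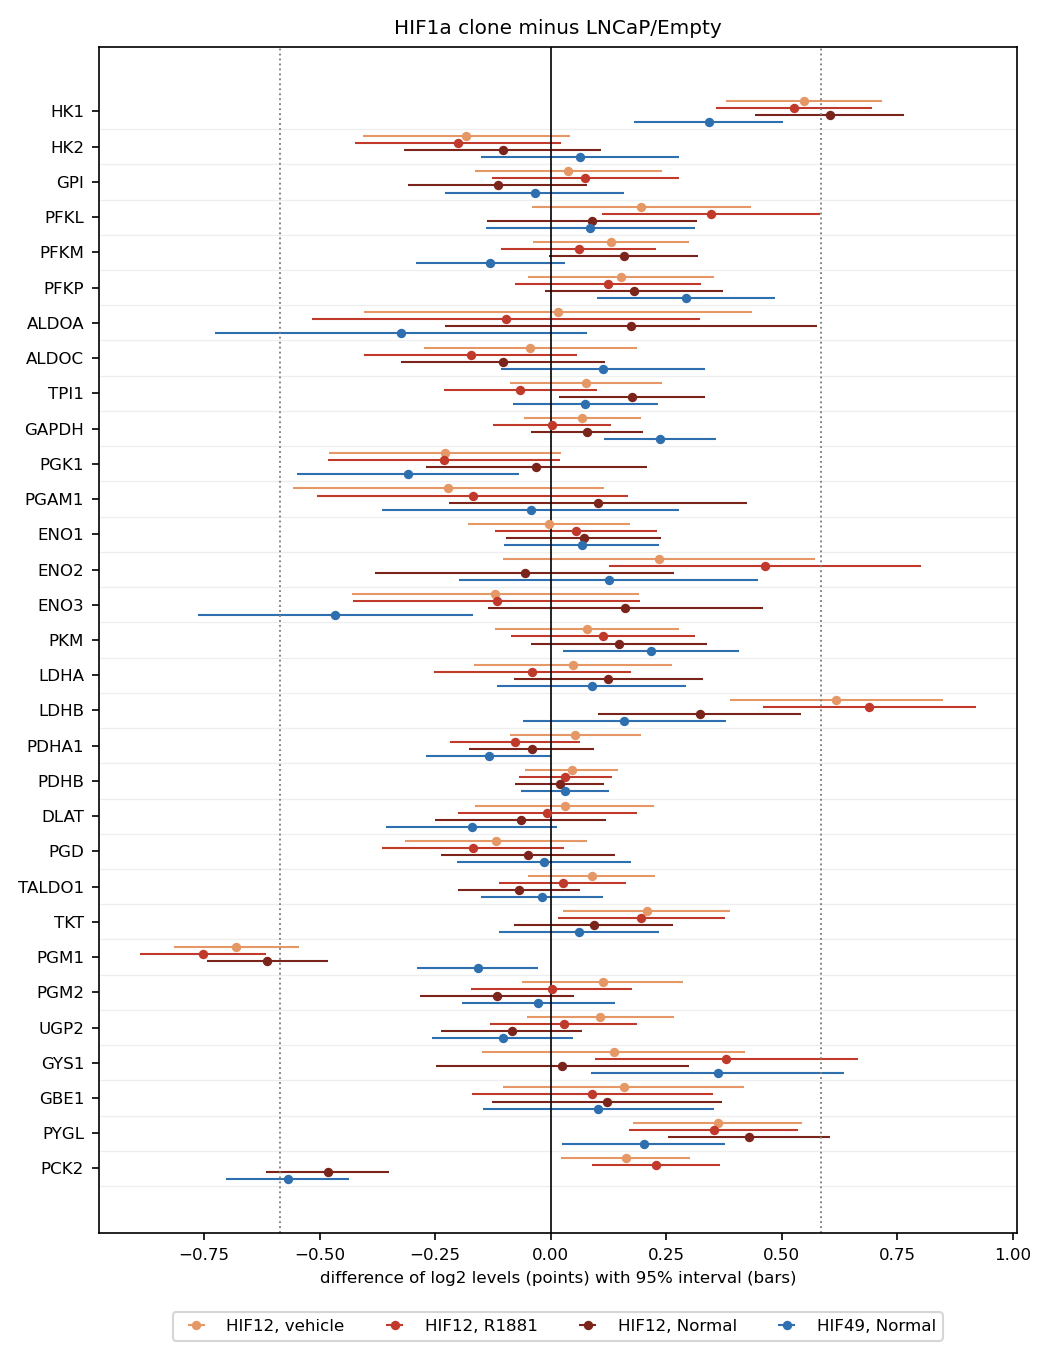
Difference of log2 levels between a HIF1a clone and LNCaP/Empty for each of 31 enzymes (points, with 95% intervals as bars), for HIF12 in vehicle, with R1881 and in Normal (orange, red, dark red) and HIF49 in Normal (blue), with a 1.5-fold change as dotted lines. PGM1 lies at −0.68, −0.75 and −0.61 in HIF12 and at −0.16 in HIF49, HK1 lies above 0 in all, and PCK2 lies below 0 in Normal only.

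Of the comparisons fitted, those of vehicle and Normal held the largest differences in this set. HK2, the inducible hexokinase of tumours, and LDHA, the subunit that favours lactate formation, were lower in vehicle in both lines, and the neuron-type enolase ENO2 was higher. LDHB and PCK2 were lower in vehicle past the threshold in LNCaP/Empty. What Normal differs in is not given, so only the sizes are reported.

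HK2 read 8.81, 9.26, 9.08, 8.55, 8.97 and 9.22 in LNCaP/Empty Normal and 7.60, 7.76, 7.57, 7.47 and 7.72 in vehicle. In HIF12 it read 8.98, 8.90, 8.79, 8.79 and 8.92 in Normal and 7.23, 7.57, 7.57, 7.45 and 7.37 in vehicle. The gap between the groups was wider than either group in both lines. HK2 fell by 1.36 in LNCaP/Empty (SE 0.105, 2.56-fold, adjusted p = 8.3e-12) and by 1.44 in HIF12 (SE 0.110, 2.71-fold, adjusted p = 5.8e-12). Its second probe fell by 0.87 (adjusted p = 3.6e-06) and by 0.56 (adjusted p = 0.0029). With R1881 it read 7.72, 7.62, 7.46, 7.47 and 7.47 in LNCaP/Empty and 7.31, 7.40, 7.57, 7.24 and 7.21 in HIF12, near the vehicle values. In HIF49 Normal it read 8.69, 9.27, 8.92, 9.16 and 9.17.

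LDHA read 14.13, 14.52, 14.36, 14.00, 14.14 and 14.52 in LNCaP/Empty Normal and 13.71, 13.69, 13.77, 13.84 and 13.59 in vehicle. In HIF12 it read 14.25, 14.30, 14.39, 14.49 and 14.57 in Normal and 13.63, 13.88, 13.73, 13.76 and 13.85 in vehicle. No vehicle array reached a Normal array. With R1881 it read 13.65, 13.74, 13.75, 13.76 and 13.74 in LNCaP/Empty and 13.65, 13.73, 13.61, 13.70 and 13.73 in HIF12, again below every Normal array of these lines. HIF49 Normal read 14.54, 14.28, 14.47 and 14.66 on 4 arrays and 13.86 on replicate 1. LDHA fell by 0.63 in HIF12 (SE 0.105, 1.55-fold, adjusted p = 4e-05) and by 0.56 in LNCaP/Empty (SE 0.101, 1.47-fold, adjusted p = 0.00013), the latter short of 1.5-fold. Its second probe (mean level 13.7) fell by 0.67 in each line and was past the threshold in both (adjusted p = 3.1e-06 and 7.7e-06).

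LDHB read 13.07, 12.97, 13.15, 12.70, 13.07 and 13.10 in LNCaP/Empty Normal, and its vehicle values given above all lay below these. It fell by 0.65 (SE 0.108, 1.57-fold, adjusted p = 3.8e-05). Without LNCaP/Empty vehicle replicate 5 the difference was −0.527 and under 1.5-fold. In HIF12 Normal it read 13.33, 13.37, 13.16, 13.48 and 13.33, and in vehicle it fell by 0.35 (SE 0.113, adjusted p = 0.039). HIF49 Normal read 13.38, 12.85, 13.41, 13.25 and 12.95, within the range of the other Normal groups.

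ENO2 moved the other way. It read 7.32, 7.77, 7.59, 7.60, 7.31 and 7.21 in LNCaP/Empty Normal and 8.18, 7.94, 8.28, 8.08 and 8.31 in vehicle, and 7.29, 7.45, 7.30, 7.73 and 7.27 in HIF12 Normal and 8.67, 8.41, 8.25, 8.27 and 8.36 in vehicle. Every vehicle array lay above every Normal array of its line. ENO2 rose by 0.69 in LNCaP/Empty (SE 0.159, 1.62-fold, adjusted p = 0.0023) and by 0.98 in HIF12 (SE 0.166, 1.98-fold, adjusted p = 5e-05). The LNCaP/Empty rise was 0.489 without background correction, under 1.5-fold. With R1881 it read 8.14, 8.08, 8.08, 8.00 and 8.00 in LNCaP/Empty and 8.56, 8.46, 8.66, 8.55 and 8.39 in HIF12, near the vehicle values. In HIF49 Normal it read 7.41, 7.05, 7.27 and 7.58 on 4 arrays, like the other Normal groups, and 8.64 on replicate 1, above every LNCaP/Empty vehicle array.

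PCK2 was the member whose shift differed between the lines. In vehicle it read 12.00, 11.90, 11.83, 11.75 and 12.03 in LNCaP/Empty and 12.10, 12.06, 12.14, 12.05 and 11.97 in HIF12. Beside the Normal values above, the 6 LNCaP/Empty Normal arrays were the high ones. With R1881 it read 11.93, 11.76, 11.87, 12.00 and 11.81 in LNCaP/Empty and 12.13, 12.06, 12.09, 12.17 and 12.05 in HIF12, so no array outside LNCaP/Empty Normal exceeded 12.19. PCK2 fell by 0.64 in LNCaP/Empty (SE 0.065, 1.56-fold, adjusted p = 4.5e-09), with means of 12.06 and 12.07 in HIF12. The difference of the shifts was 0.64 (SE 0.095, adjusted p = 0.00034), a test that 0.13% of all genes passed past the threshold in this direction and no other member passed. The probes of PCK2 disagreed. The second probe fell by 0.37 in LNCaP/Empty (adjusted p = 0.0053), while the third rose by 0.39 in LNCaP/Empty (adjusted p = 0.0073) and by 0.86 in HIF12 (adjusted p = 2.1e-07). The difference of the shifts was positive on these probes too, 0.44 and 0.47, without passing (adjusted p = 0.36 and 0.39).

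**Figure D4:**
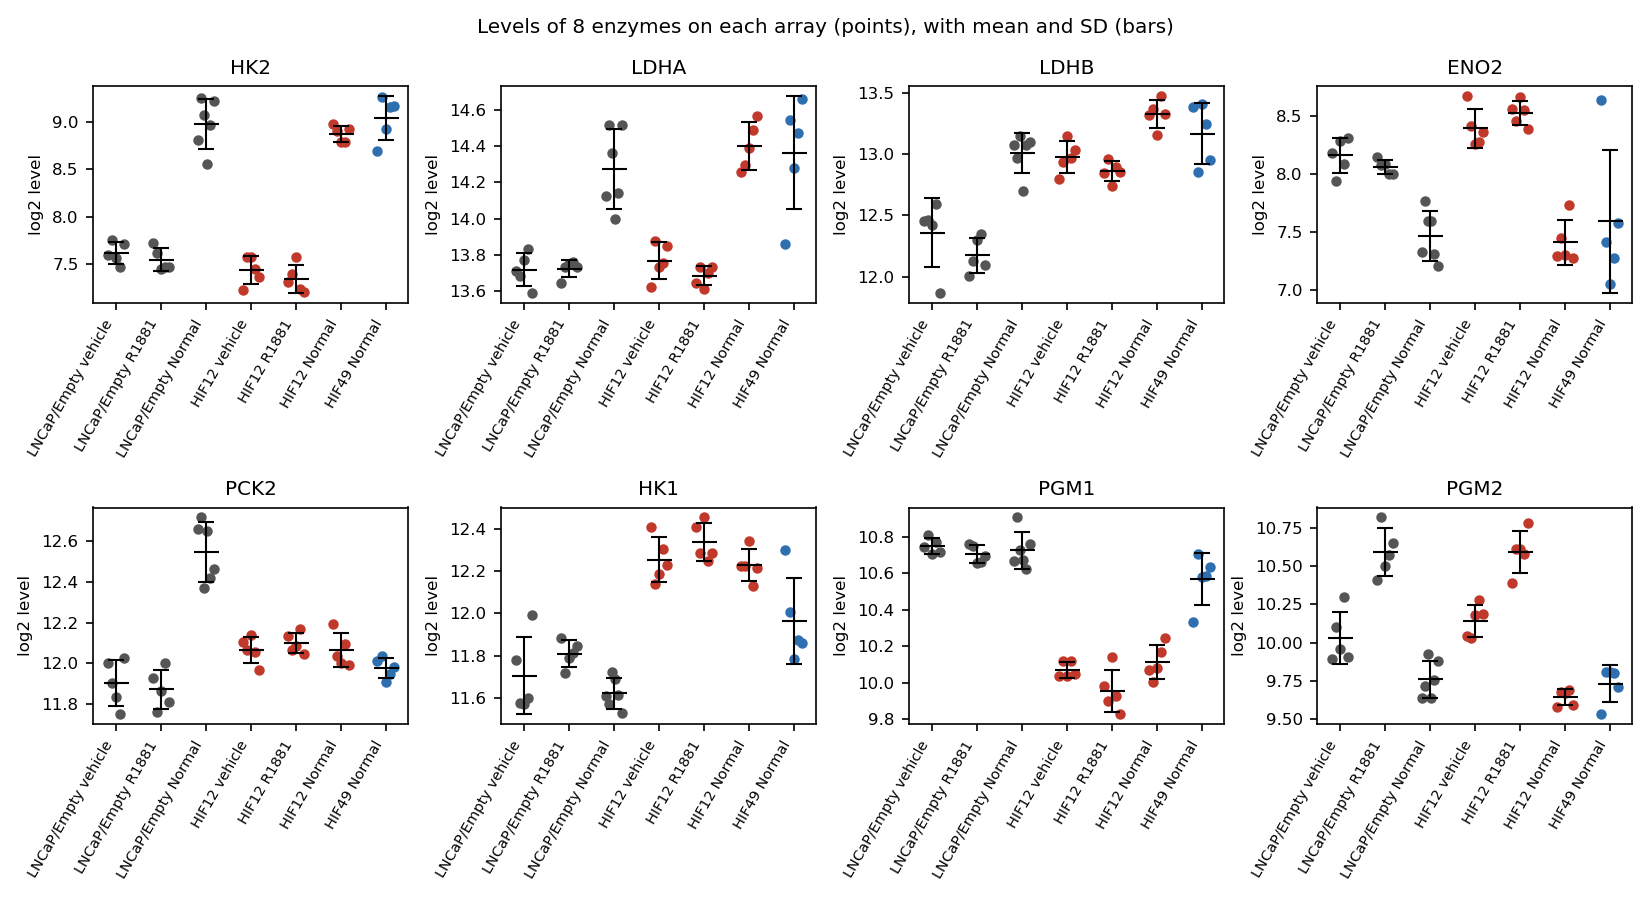
Log2 level of 8 enzymes on each array (points), with the group mean and SD as bars, in the 7 groups (LNCaP/Empty grey, HIF12 red, HIF49 blue). HK2 and LDHA are high in the Normal groups, ENO2 is low there apart from a HIF49 array at 8.64, PCK2 is high in LNCaP/Empty Normal alone among the groups, PGM1 and HK1 separate HIF12 from LNCaP/Empty, and PGM2 is highest with R1881.

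By role, 2 upper glycolytic enzymes besides HK2 were lower in vehicle at an adjusted p under 0.05 in LNCaP/Empty, the glucose phosphate isomerase GPI (−0.37, adjusted p = 0.0071) and the platelet-type phosphofructokinase PFKP (−0.44, adjusted p = 0.0012). The brain-type aldolase ALDOC was higher (0.33, adjusted p = 0.041). In HIF12 PFKP was lower (−0.46, adjusted p = 0.0011) and ALDOC higher (0.39, adjusted p = 0.019), and the lower glycolytic enolases ENO1 (−0.29, adjusted p = 0.024) and ENO3 (−0.51, adjusted p = 0.027) were lower. Among the pyruvate genes the dehydrogenase subunits PDHA1 and DLAT were lower in both lines, at −0.35 and −0.47 in LNCaP/Empty (adjusted p = 0.00022 and 0.00031) and at −0.26 and −0.38 in HIF12 (adjusted p = 0.012 and 0.0064). Of the 3 pentose phosphate enzymes, transketolase TKT was lower in both lines (−0.44, adjusted p = 0.00032, and −0.32, adjusted p = 0.013), and PGD and TALDO1 did not pass.

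The genes listed under glycogen, among which the phosphopentomutase PGM2 was placed, were mixed. PGM2 was higher in vehicle than in Normal in both lines (0.27, adjusted p = 0.025, and 0.50, adjusted p = 5.8e-05). Its Normal arrays read 9.64, 9.72, 9.93, 9.64, 9.76 and 9.88 in LNCaP/Empty, 9.58, 9.68, 9.67, 9.69 and 9.59 in HIF12 and 9.53, 9.81, 9.81, 9.80 and 9.71 in HIF49, so its level ran from Normal through vehicle to R1881 in both lines. PYGL was lower in HIF12 vehicle (−0.30, adjusted p = 0.027) and GYS1 higher (0.45, adjusted p = 0.032), the latter with overlapping arrays. UGP2 and GBE1, which make UDP-glucose and the branches of glycogen, did not pass in any comparison, nor did the liver-type phosphofructokinase PFKL (group means 9.04 to 9.57) or the triose phosphate isomerase TPI1. With R1881, however, PFKL read 9.16 to 9.32 in LNCaP/Empty and 9.38 to 9.71 in HIF12, without overlap. In that comparison 6 members were higher and 1 lower in HIF12 without overlap, where 8.49% of all genes did not overlap.

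**Figure D5:**
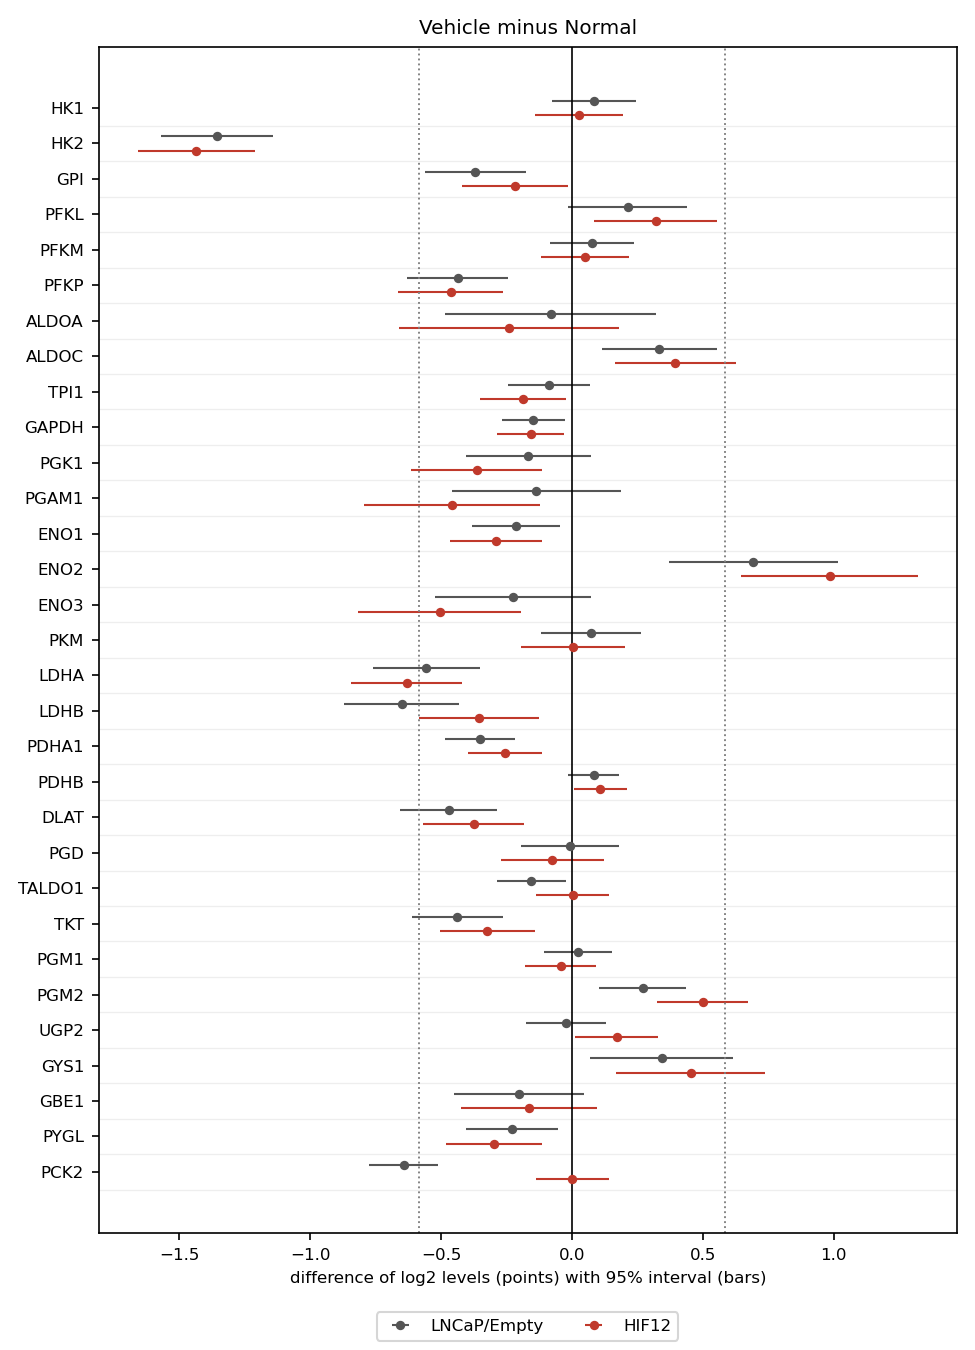
Difference of log2 levels between vehicle and Normal for each of 31 enzymes (points, with 95% intervals as bars) in LNCaP/Empty (grey) and HIF12 (red), with a 1.5-fold change as dotted lines. HK2 lies at −1.36 and −1.44, ENO2 at 0.69 and 0.98, and PCK2 at −0.64 in LNCaP/Empty against an interval around 0 in HIF12.

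Over the 31 members, 3 were lower and 1 higher past the threshold in LNCaP/Empty (2.59% and 2.88% of all genes), and 2 were lower and 1 higher in HIF12 (2.35% and 3.47%). Of the detected genes 4.68% were lower and 5.12% higher past the threshold in LNCaP/Empty, and 4.21% and 6.25% in HIF12. At any size 9 were lower (29%, against 8.72% of all genes and 15.5% of the detected genes) and 3 higher (9.68%, against 8.08% and 14.2%) in LNCaP/Empty. In HIF12, 10 were lower (32.3%, against 7.54% and 13.4%) and 4 higher (12.9%, against 8.16% and 14.4%). The members are brighter than most genes, and shares among genes of like level were not computed. Without HIF12 vehicle replicate 5, 6 were lower and 3 higher in HIF12. Over all genes in LNCaP/Empty, 578 of 1098 calls were higher, and 452 of 1201 with median scaling, under which 11 members were lower and 1 higher at any size. The median shift over members was −0.15 in LNCaP/Empty and −0.17 in HIF12, beside −0.01 and 0.00 over all genes. The 95% interval lay within a 1.5-fold change for 22 members in LNCaP/Empty and 20 in HIF12.

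Other genes moved in the same comparison, and their part in these shifts was not tested. The androgen-regulated KLK3, also called PSA, was lower in vehicle than in Normal, at −1.97 in LNCaP/Empty and −2.14 in HIF12 (adjusted p = 7.2e-13 and 2.6e-13), and so was KLK2, at −2.85 and −3.37, with KLK2 detected on 2 of the 5 LNCaP/Empty vehicle arrays. Of the liver markers, TTR was higher in vehicle by 1.39 and 0.95 (adjusted p = 8.9e-10 and 3.7e-06), APOA1 by 0.63 and 0.44 (adjusted p = 0.0089 and 0.12), and ALB differed by −0.04 and −0.01 (adjusted p = 0.94 and 0.99). The basal, leukocyte and fibroblast lists held no marker detected on more than 7 of 36 arrays.

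Of the 75 other pathway genes, 2 were higher and 3 lower in vehicle past the threshold in LNCaP/Empty, and 3 were higher and 3 lower in HIF12. Over all genes 2.88% were higher and 2.59% lower in LNCaP/Empty, and 3.47% and 2.35% in HIF12. Ribokinase RBKS rose by 1.04 and 0.84 (adjusted p = 2e-10 and 5.7e-08), PHKA1, a regulatory subunit of phosphorylase kinase, fell by 0.90 and 0.64 (adjusted p = 2.1e-09 and 4.6e-06), and PFKFB3, which makes the allosteric activator of phosphofructokinase, fell by 0.79 and 0.93 (adjusted p = 1.1e-05 and 1.6e-06), in LNCaP/Empty and HIF12. The ribose 5-phosphate isomerase RPIA and the glycogen-binding protein STBD1 were the remaining calls in LNCaP/Empty, and with the D-lactate dehydrogenase LDHD those in HIF12. LDHD was higher by 0.93 in HIF12 (adjusted p = 1.1e-08), and its shift exceeded that in LNCaP/Empty by 0.63 (adjusted p = 0.036). The hexosamine enzyme GFPT1 also passed this test of a different shift, at 0.66 (adjusted p = 0.011). Of all genes 0.13% passed it past the threshold in this direction.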

How the data were processed

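Total RNA from 36 samples of LNCaP cells was hybridised to Illumina BeadArrays. The study's methods name an earlier version of the human array, and the probes here follow the annotation supplied with the deposited table. The authors deposited non-normalized scanner intensity values with a detection p-value per probe, and a normalized value table, used here as an alternative. How the authors summarised beads is not given in the sources used here, nor is the slide of each array. Of 48107 probes, 30113 had 1 gene symbol, 8 had several and 17986 had none, and the 48105 without missing values were tested.

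Intensities were background-corrected with nec (offset 16), log2 transformed and quantile-normalized over 36 arrays, then fitted with limma 3.58.1 (R 4.3.3; lmFit, eBayes) with a mean per group. P-values were adjusted by Benjamini-Hochberg over all probes of a comparison and were two-sided. Only the limma fit was checked on simulated log2 values, which did not pass through background correction or quantile normalization. Signals have no counting depth, so precision rests on the number of arrays, and p-values measure the spread between arrays, which the labels do not say came from separate cultures. By rule, all members were named, with values on every array for those past the threshold in any comparison, and of the other pathway genes up to 3 per comparison with the largest called change. The members and lists were chosen with earlier results of these data known. Alternatives covered background correction, scaling (median, cyclic loess), a detection filter, the arrays fitted, blocks by replicate number or by the running number of the titles (6 or 12 arrays), array weights, any probe of a gene, and leaving out each array.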

Additional observations from a re-analysis of the deposited data

Results flagged for a closer look

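Single arrays lay far from the rest of their group in 8 of 217 sets of member and group (3.69%), where chance flags about 1 in 20. ALDOA read 13.08 on LNCaP/Empty vehicle replicate 5 and 12.49 to 12.65 on its group-mates. LDHB read 11.87 on the same array. PKM read 11.92 and DLAT 9.59 on HIF49 Normal replicate 1, the array whose HIF1A level went against its label. TPI1 read 13.86 on HIF12 Normal replicate 2, and LDHA 13.65 on LNCaP/Empty R1881 replicate 1. PGD read 11.36 on LNCaP/Empty R1881 replicate 1 and 11.16 on HIF12 R1881 replicate 3. PCK2 had a different vehicle against Normal shift in HIF12 than in LNCaP/Empty, by 0.64 on the log2 scale, tested as an interaction in limma.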

How the results depend on the processing

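Of the member differences with an adjusted p under 0.05, none reversed under any of the 48 alternatives per comparison. Their recomputed values kept direction and side of the threshold in 2218 cases, gained the call in 17 and lost it in 21, a tally that leaves out calls gained by other members. Most of the alternatives left out a single array. Where that array belonged to neither compared group, the difference could not change, only its p-value. These cases kept their direction by construction, so the tally says little of stability. In HIF12 against LNCaP/Empty 2 members passed in each condition. In vehicle this was 1 with the running number in blocks of 12 (LDHB lost) and 3 with median scaling (HK1 gained), and blocks of 6 lost LDHB and gained HK1. With R1881 it was 4 with median scaling (HK1 and ENO2 gained). In Normal it was 1 without background correction, with plain normexp (offset 50), with the deposited normalized table, with median scaling or with blocks of 12. HIF49 against LNCaP/Empty went from 0 to 1 with median scaling, with the replicate block or with any probe counted (PCK2). HIF49 against HIF12 went from 1 to 0 without background correction, with plain normexp, with the deposited table or with only the compared arrays. The cause was not tested.

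Leaving out each array in turn gave 0 to 1 members for R1881 in LNCaP/Empty and 0 to 0 in HIF12. For the HIF12 clone set against the empty vector line it gave 1 to 2 in vehicle, 2 to 2 with R1881 and 1 to 2 in Normal, and 0 to 1 for HIF49 against LNCaP/Empty and against HIF12. For vehicle against Normal it gave 3 to 5 in LNCaP/Empty and 3 to 4 in HIF12, 0 to 0 for the difference of R1881 effects and 1 to 1 for that of vehicle shifts. The HIF49 count became 1 without HIF49 replicate 1 (ENO3) or without LNCaP/Empty Normal replicate 3, 5 or 6 (PCK2).

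At any size, HIF12 against LNCaP/Empty with R1881 gave 8 members with median scaling, 7 with array weights and 7 without HIF49 Normal replicate 1, against 4. With only the compared arrays, HIF49 gave 1 member against each of the other lines, in place of 3, and 5 against LNCaP/Empty under the detection filter. Over all genes, calls without background correction, and likewise with the deposited table, fell from 339 to 191 and from 247 to 128 for R1881 in LNCaP/Empty and HIF12, from 336 to 120, 468 to 157 (76 higher) and 369 to 136 for HIF12 (vehicle, R1881, Normal), from 299 to 133 and 562 to 222 for HIF49 against LNCaP/Empty and HIF12, and from 1098 to 491 and 1166 to 499 for vehicle against Normal. With plain normexp they numbered 207, 152, 146, 184, 162, 159, 255, 576 and 587 in this order.

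Same-numbered arrays showed little common deviation (105 pairs, median correlation 0.0069, 18 over 0.1, and 9 of 36 arrays closest to their own number). The main fit did not pair arrays by number. Such correlations cannot exclude that same-numbered arrays shared a culture or a day. The replicate block moved PCK2 in HIF49 to −0.586 and changed no other count past the threshold. Dim probes, GYS1 among them, have the least signal over background.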
